A study of Mus musculus with 3 samples.

Results

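Angiopoietin and Tie receptor genes were examined in the adult mouse renal corpuscle, the filter of the nephron with its capillary tuft and capsule. The set consisted of 8 listed genes, namely the ligand genes Angpt1, Angpt2 and Angpt4, the receptor genes Tek and Tie1, the receptor phosphatase gene Ptprb, and the angiopoietin-like genes Angptl2 and Angptl4. A gene took its value from the probe sets that the platform annotation assigns to that symbol alone, which gave 7 of the 8 a value among 19938 genes in all; each of the 7 had 1 probe set. Angptl2 has no probe set under that naming. The expression data came from 3 arrays of 1 group, so no condition was set against another. Each array held RNA of wild-type male CD-1 mice, an outbred stock, aged 7 to 9 weeks, from a pool of about 2 kidneys. Corpuscles were freed from minced kidney with 0.5% collagenase A and caught on a series of sieves, with no cell sorting, so that each sample mixed all the cells of the corpuscle with any tubule pieces that came through. Whether pools came from separate days or litters is not stated in the labels, and the spread between arrays may be partly technical.

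The angiopoietin system adjusts how stable and how leaky blood vessels are. Angiopoietin-1, made largely by cells around the vessel, activates the receptor tyrosine kinase Tie2, the product of Tek, and quiets the endothelium. Angiopoietin-2, released by endothelial cells themselves, can activate or block the same receptor depending on the context. Tie1 is a related receptor with no angiopoietin of its own that pairs with Tie2, and VE-PTP, the product of Ptprb, removes phosphate from Tie2. In the glomerulus these proteins act among podocytes, mesangial cells and the capillary endothelium. Tek also served the study as its marker of endothelial cells when the purity of sorted podocytes was judged.

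The control regions of both Tie receptor genes are shown first, because Tek and Tie1 define this system and both gave signal here. The 300 bases from RefSeq lie around the annotated start, mostly before it, and read 5′ to 3′ in the direction of the gene. Tek lies at chr4:94739039-94739338 on the plus strand and Tie1 at chr4:118489800-118490099 on the minus strand of GRCm38.p6. Capitals mark the letters GGAA on either strand (TTCC on the strand printed), the core that ETS factors, a family with many endothelial members, are known to bind.
Tek: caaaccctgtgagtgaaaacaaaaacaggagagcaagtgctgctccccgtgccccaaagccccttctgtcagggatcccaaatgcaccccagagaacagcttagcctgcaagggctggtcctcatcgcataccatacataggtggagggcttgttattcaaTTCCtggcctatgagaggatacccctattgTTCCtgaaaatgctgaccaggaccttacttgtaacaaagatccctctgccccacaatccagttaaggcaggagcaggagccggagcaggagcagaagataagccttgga
Tie1: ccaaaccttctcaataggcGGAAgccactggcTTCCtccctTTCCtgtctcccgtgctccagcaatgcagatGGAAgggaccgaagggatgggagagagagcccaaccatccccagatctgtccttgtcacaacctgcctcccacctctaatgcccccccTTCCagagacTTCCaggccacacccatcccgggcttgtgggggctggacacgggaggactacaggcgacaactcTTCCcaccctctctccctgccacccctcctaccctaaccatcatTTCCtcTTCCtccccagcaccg
The Tek stretch held 2 such cores and the Tie1 stretch 9. Among 32851 promoters of the same length 96.0% held at least 1, the median was 3, 84.6% held 2 or more and 1.59% held 9 or more. The window of Angpt4 held 5 cores, a count that 28.6% of the promoters reached, and that of Angptl2 held 2. A match of letters is a description and not a binding site. Stretches for Angpt1, Angpt2, Ptprb and Angptl4 were not analysed here.

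Signals are log2 values, and each was read against the background of its array. Each probe set has its own affinity, which subtracting a common background does not correct. Distances of different genes are therefore not a ranking of transcript amounts. Background was the 95th percentile over 1205 probe sets of odorant and vomeronasal receptor genes, most of which are silent outside sensory tissue. It stood at 6.90, 6.96 and 6.92 log2 on replicates 1, 2 and 3. A gene was called above background where log2 signal minus background exceeded 0 in a one-sided limma test with a Benjamini-Hochberg adjusted p under 0.05. By this call 5 of the 7 genes lay above background, beside 58.7% of all 19938 genes tested. They were Tek, Tie1, Ptprb, Angpt2 and Angptl4, and the ligand genes Angpt1 and Angpt4 were not called. The median of the 7 was 1.81 log2 above background, and that of all genes was 0.37. A linear signal over 500 on all arrays was reached by 3 of the 7, Tek, Ptprb and Angpt2, beside 17.2% of all genes. Over 1000 were 2 of the 7, Tek and Ptprb, beside 7.59% of all genes. In tissue of mixed cells, fewer cells of a type and less RNA per cell cannot be told apart.

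**Figure D1:**
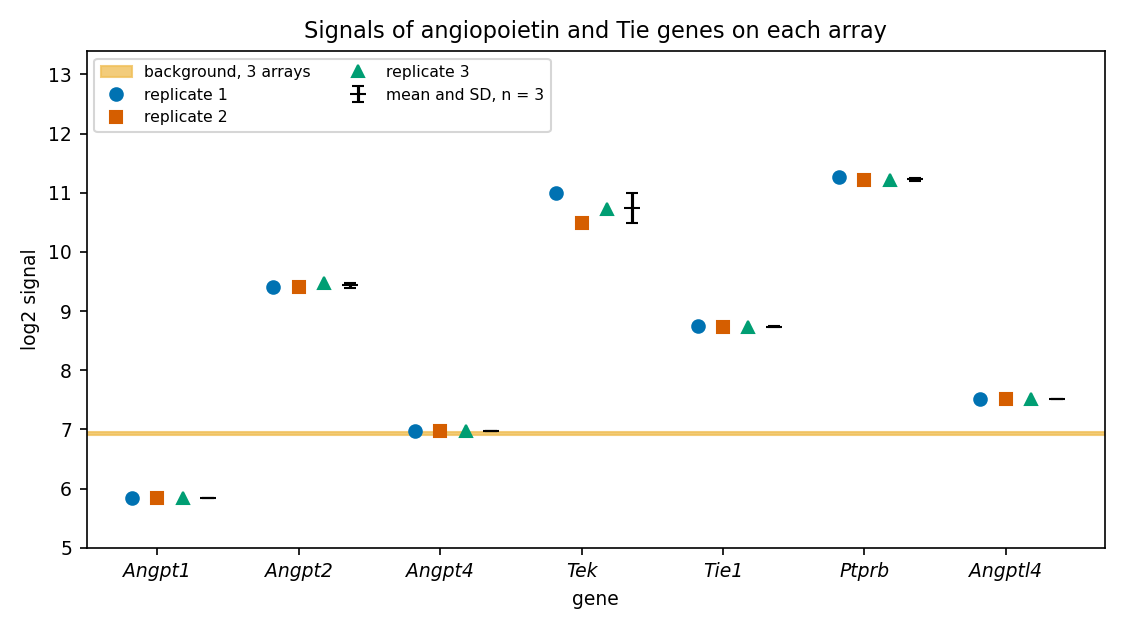
log2 signal (vertical axis) of the 7 genes with a value (horizontal axis) on each of 3 arrays; coloured symbols are replicates, black marks show their mean with its SD (n = 3), and an orange band runs over the array backgrounds, 6.90 to 6.96. Angpt1 lies below the band and Angpt4 on its upper edge, and Tek is the gene whose 3 symbols are visibly apart.

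Many deposited values are identical on several arrays to the last decimal, and this held for most of these genes. Angpt1, Angpt4 and Angptl4 had 1 value on all 3 arrays, and Angpt2, Tie1 and Ptprb had the same value on 2 of them. Tek alone among the 7 had 3 different values. Over all genes the shares were 54.2% with 1 value, 27.5% with the same value on 2 arrays and 18.3% with 3 different values. An SD of 0 is therefore not an error of 0. The standard error (SE) of the limma test, which borrows from genes of like level, is given instead for distances from background. For a gene with 1 value on all arrays it holds only the differences between array backgrounds and what is borrowed. It does not measure the error of such a signal. No p-value of a single gene is printed because the ties may make it too small.

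Both receptor genes and the phosphatase gene lay above background. Tek had 11.00, 10.49 and 10.72 log2 on replicates 1, 2 and 3, with a mean of 10.74 ± 0.25 (SD, n = 3). It was highest on replicate 1 and lowest on replicate 2, and all 3 arrays lay at least 3.53 above their own background. The mean distance was 3.81 ± 0.053 (SE), a 14.0-fold signal over background. That SE follows genes of like level more than the spread of Tek itself, and so may be too small for this gene. Against a background fixed at a linear signal of 150 the distance of Tek was 3.51 ± 0.14 (SE). As linear signals the arrays gave 2049, 1443 and 1684. Tie1 had 8.75, 8.73 and 8.73, with replicates 2 and 3 identical. Its distance from background was 1.81 ± 0.038 (SE), and its linear signals ran from 425 to 432. Ptprb had 11.26, 11.21 and 11.21, again with replicates 2 and 3 identical. It stood 4.30 ± 0.045 (SE) above background, with linear signals of 2366 to 2452. Each of the 3 genes did so on all 3 arrays.

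Among the ligands, the signal came from Angpt2. Its values were 9.41, 9.41 and 9.48, with replicates 1 and 2 identical and replicate 3 the highest. It lay 2.50 ± 0.041 (SE) above background, a 5.68-fold signal, with linear signals of 681 to 713. Angpt2 lies inside the span of Mcph1, a gene for a chromosome condensation protein, in the GRCm38.p6 annotation. The probe set of Mcph1 gave 7.07, 7.17 and 7.17, which was 0.21 above background. Its part in the signal of Angpt2 was not tested.

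Angpt1, the activating ligand, gave 5.84 log2 on each array, a linear signal of 57.3. Relative to the background of replicates 1, 2 and 3 it was at -1.06, -1.12 and -1.08 log2, a mean of -1.09. Against the receptor median, a lower bar that 90.4% of all genes passed, Angpt1 was 0.46 above it. Angpt4, which also binds Tie2, gave 6.98 on each array. It was 0.074, 0.018 and 0.053 log2 above the background of replicates 1, 2 and 3, with a mean of 0.048 ± 0.027 (SE) that missed the call. Its signal was the same on each array, so these distances differ only through the background levels. Without replicate 2, the array with the highest background, Angpt4 was 0.063 above and was called. By the plain rule of lying above background on each array, which 59.0% of all genes met, 6 of the 7 genes passed, Angpt4 among them. The signal of Angpt4 thus sat at the threshold. A signal at background does not show that a transcript is absent, since it also depends on how well the probe set binds.

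**Figure D2:**
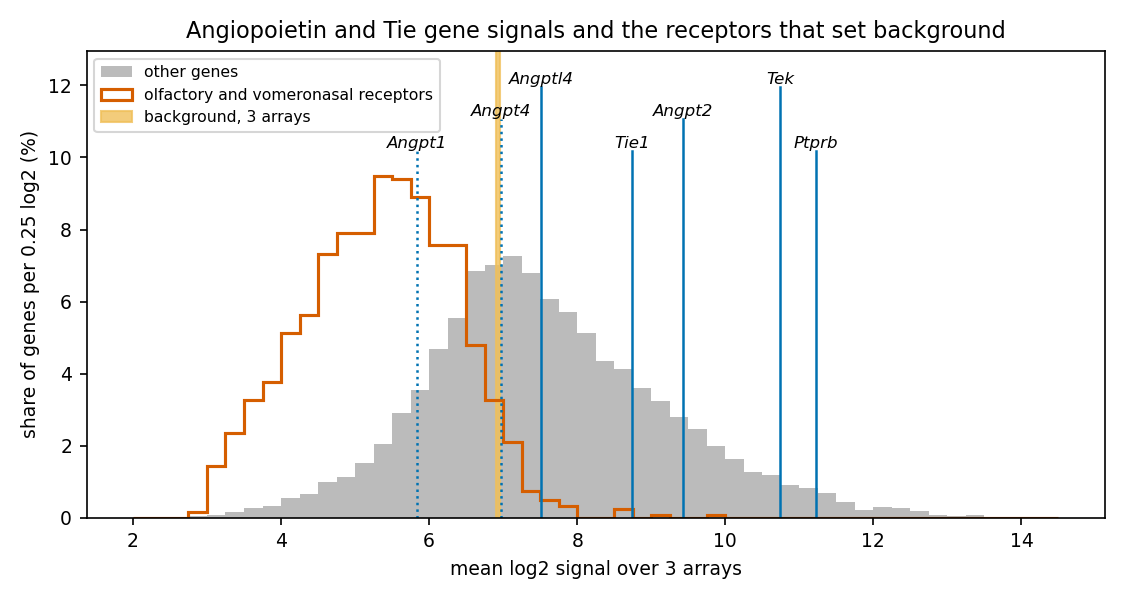
Share of genes in % per step of 0.25 log2 (vertical axis) against mean log2 signal over 3 arrays (horizontal axis), for olfactory and vomeronasal receptor genes (orange outline) and all other genes (grey). Blue lines are the 7 genes, solid where called above background and dotted where not, and line heights only separate the names; Angpt1 falls within the bulk of the receptors, while Angpt2, Tek and Ptprb, at 9.43, 10.74 and 11.23, lie beyond nearly all of them.

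The angiopoietin-like proteins resemble angiopoietins in build but do not bind Tie receptors. Angptl4, an inhibitor of lipoprotein lipase that is secreted in fasting and low oxygen and is known from podocytes in nephrotic syndrome, gave 7.51 log2 on each array. It lay 0.58 ± 0.030 (SE) above background, a linear signal of 183. Against the 99th percentile of receptors, which 41.6% of all genes passed, it was at -0.048 log2 and lost its call. Angptl2 is a secreted protein tied to inflammation and vessel growth. The array holds a probe set, 10471555, that the platform annotation does not name and that the study's own gene list pairs with Angptl2. That probe set gave 10.92 on each array, 3.99 above background and a linear signal of 1934. It was chosen after its values were seen and entered no count above; Angptl2 lies inside the span of Ralgps1, for which no probe set was named. It was not in the limma test. Counting it by another rule, a distance of over 1 log2 above background, would make 6 of 8 genes.

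The wider pathway was read from 5 lists of 58 genes, of which 52 had a value. Of these, 45 were above background and 7 were not, beside 58.7% of all genes, with a median of 1.33 log2 above background beside 0.37. Of the 4 relatives among angiopoietin-like genes, 3 were called, beside 58.7% of all genes, with a median of 0.43 log2 above background. Angptl8, a secreted protein of lipid metabolism, was at 0.72, and Angptl6 and Angptl7 were each at 0.43. Angptl1, at -0.93, was not called.

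Proteins that work with Tie receptors at the cell surface were called for 8 of 11 genes, beside 58.7% of all genes. Integrins can bind angiopoietins and associate with Tie2, and Itgb1 was 5.47 and Itgav 3.82 log2 above background. Cdh5, the cadherin of endothelial junctions and a partner of VE-PTP, was 4.02 above, with 11.06, 10.90 and 10.90 on the 3 arrays. Adam17, a protease that sheds surface proteins, was 2.89 above. Not called were Itgb3 at -0.21, the fibronectin gene Fn1 at -0.25, and Lect2, a liver-derived protein that binds Tie1, at -1.64.

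Inside the cell, 17 of 18 signalling genes were above background, beside 58.7% of all genes. Pik3r1, the regulatory subunit of phosphoinositide 3-kinase that docks on Tie2, was 4.08 log2 above, the Ras inhibitor gene Rasa1 3.82, the adaptor gene Nck1 3.20 and the kinase gene Akt2 2.94. The adaptor gene Grb14, at -0.32, was the gene not called. Some further genes were named after their values were seen, because they stand at known ends of the pathway. Foxo1, a transcription factor that Akt holds out of the nucleus and that drives Angpt2, was at 9.15 on each array and 2.22 above background. Nos3, the endothelial nitric oxide synthase gene, was 0.71 above, and Dok2, an adaptor that binds Tie2, was 0.44 above.

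All 9 genes that work with Angptl2 or Angptl4 and had a value were called, beside 58.7% of all genes. Cd36, a fatty acid receptor, was 2.44 log2 above background. Lpl, the lipase that Angptl4 inhibits, was 2.41 above, with 9.42, 9.16 and 9.42 on replicates 1, 2 and 3. The protease genes Pcsk5 and Furin, whose family cuts Angptl4, were 1.34 and 1.33 above. Of 10 regulators of Angptl4 and genes that share its regulators, 8 were called, beside the same share. The hypoxia factor genes Epas1 and Hif1a were 5.03 and 2.81 above, the glucocorticoid receptor gene Nr3c1 2.50 and Cpt1a, of fatty acid oxidation, 1.92. Pdk4 and Ppara, which belong with Angptl4 to the fasting response, were at -0.046 and -0.36 and were not called. Fat tissue also makes Angptl4 and Lpl, so adipocyte markers are given beside them: 2 of 5 were called, beside 58.7% of all genes. These were Fabp4, which capillary endothelium shares, at 2.82 and Plin1 at 0.47. Cidec at -0.22, Lep at -1.36 and Adipoq at -1.68 were not called, and these 3 lay below background on every array. The summed linear signal of the 5 ran from 1141 to 1328 over the arrays.

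**Figure D3:**
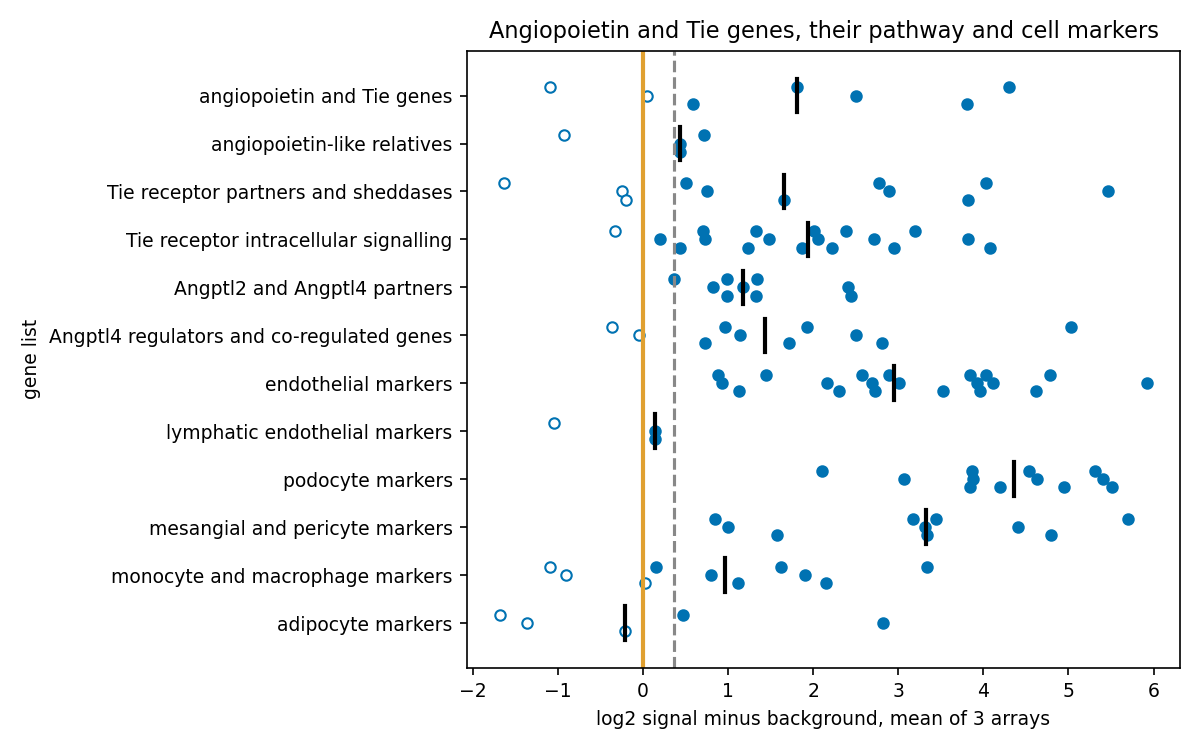
Mean log2 signal minus background over 3 arrays (horizontal axis) of each gene with a value in 12 lists (rows, offset within a row only to separate points); filled points were called above background and open points were not, black bars are list medians, the orange line is background and the dashed line the median of all genes, 0.37. The angiopoietin and Tie genes spread from -1.09 to 4.30, and all 20 endothelial markers are filled.

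The label of the tissue was checked against its markers. All 20 endothelial markers, all 12 podocyte markers and all 10 mesangial and pericyte markers with a value were called above background, with medians of 2.95, 4.37 and 3.33 log2, beside 58.7% of all genes called and a median of 0.37. The endothelial genes farthest from background were Emcn at 5.93, the VEGF receptor genes Kdr and Flt1 at 4.79 and 4.11, and Adgrl4 at 4.62. Smooth muscle markers were called for 8 of 10 genes, proximal tubule markers for 10 of 11, and distal tubule and collecting duct markers for 6 of 8, beside the same 58.7% of all genes. Their medians were 1.47, 0.76 and 1.19 log2 above background. The gene farthest above background in each list was Myl9 at 4.22, Kap at 3.68 and Calb1 at 2.46. Markers of monocytes and macrophages, some of which are known to carry Tie2, were called for 7 of 10 genes, namely Mrc1 at 3.34, Tyrobp at 2.15, Lyz2 at 1.90, Ptprc at 1.62, Cx3cr1 at 1.11, Cd68 at 0.80 and Csf1r at 0.16. Not called were Itgam and Adgre1, at -0.90 and -1.09 and below background on every array, and C1qa at 0.029. Their summed linear signal was 3626, 3772 and 3089 on replicates 1, 2 and 3. Replicate 2 stood apart for interferon-stimulated genes, whose 5 values summed to 2596, 6872 and 2184. Ifit1 had 8.53, 10.40 and 8.39, Irf7 7.36, 9.28 and 7.36, Ifit3 10.63, 11.93 and 10.34, and Oasl2 8.77, 9.88 and 8.47. Outside that list, the markers over 2-fold apart were Acta2 of smooth muscle, lowest on replicate 1 and with 9.00 and 8.79 on replicates 2 and 3, and the tubule genes Umod, with 8.77, 9.18 and 9.78, and Atp6v1g3, with 7.94, 8.41 and 7.40. The part of these other cells and of that array in the results was not tested; without replicate 2 the distance from background was 3.95 for Tek, 2.53 for Angpt2, 1.83 for Tie1, 4.32 for Ptprb and 0.60 for Angptl4.

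The 3 preparations were then compared gene by gene. None of the 5 called genes differed by over 2-fold between any pair of arrays, as 48 of 11712 called genes (0.41%) did; the shares were 0.222% for replicates 1 and 2, 0.0854% for 1 and 3 and 0.324% for 2 and 3. Tek differed by 0.51 log2 between replicates 1 and 2, by 0.28 between 1 and 3 and by 0.22 between 3 and 2. For Angpt2, Ptprb and Tie1 the range over the arrays was 0.066, 0.051 and 0.023. The SD of Tek, 0.25, was reached by 2.19% of the called genes and by 8.13% of the 3000 called genes with 3 different values, whose median SD was 0.094. Because ties hold down the spread of the other 6 genes, the larger spread of Tek is given as a description with no test.

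**Figure D4:**
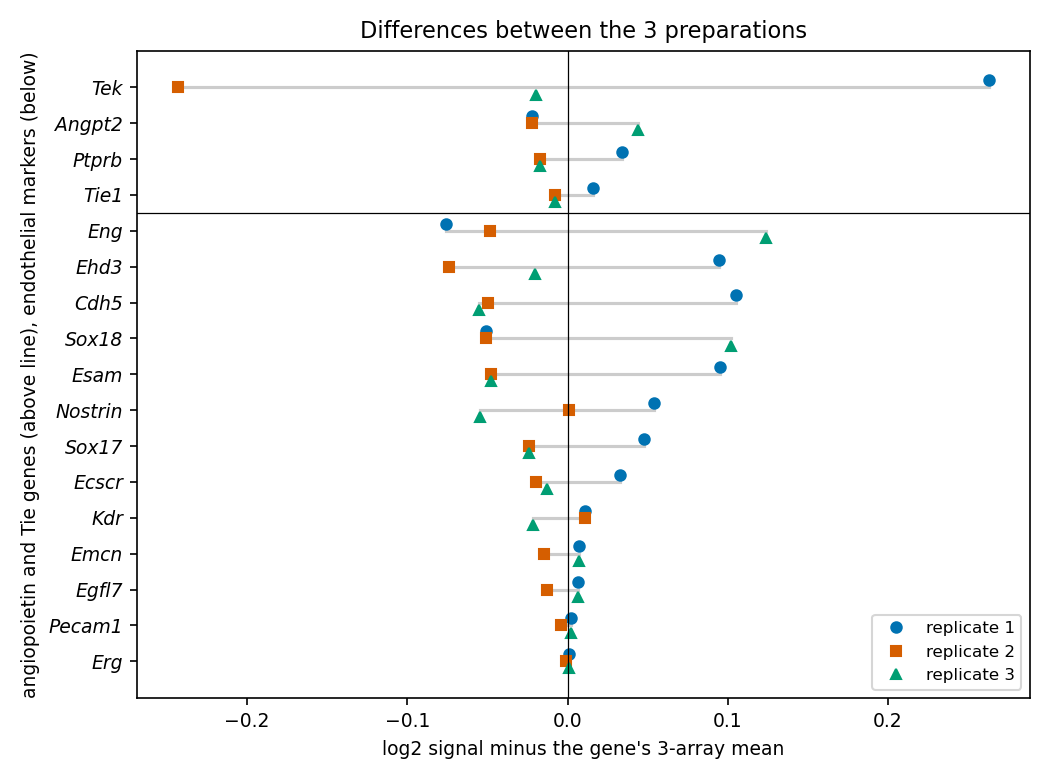
log2 signal minus the 3-array mean of the same gene (horizontal axis) for the 4 angiopoietin and Tie genes (above the line) and 13 endothelial markers (below) that had more than 1 value, with a symbol for each replicate (offset vertically only to keep equal values visible) and grey bars from lowest to highest. The bar of Tek spans 0.51, whereas the longest among the endothelial markers, that of Eng, spans 0.20.

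The endothelial markers were set beside Tek on the same arrays. Over the 20 endothelial markers the widest range was 0.20, that of the TGF-beta co-receptor gene Eng, followed by 0.17 for Ehd3, a gene of glomerular endothelium, with 10.95, 10.78 and 10.83. Ties hold down these ranges too, since 7 of the 20 markers had 1 value on all arrays and 5 had 3 different values. Of the 20 markers, 10 were higher on replicate 1 than on replicate 2, 1 was lower and 9 were equal, beside 28.1% of all called genes that were higher. The order of Tek, with replicate 1 highest and replicate 2 lowest of 3 different values, was also that of 2 markers, Ehd3 and Ecscr, and of 4.97% of all called genes. The summed linear signal of the endothelial markers was 31534, 30837 and 31130 on replicates 1, 2 and 3.

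Markers of other cells moved between the same arrays. Over all genes the summed linear signal was 7637460, 7555680 and 7536450 on replicates 1, 2 and 3. Of 11712 called genes, 3287 (28.1%) were higher on replicate 1 than on replicate 2 and 1990 were lower. Podocyte markers summed to 35769, 33597 and 33476, with 7 of 12 higher on replicate 1 than on replicate 2 and none lower. Mesangial and pericyte markers summed to 17311, 18418 and 18523, with 1 of 10 higher and 4 lower; Rgs5, a pericyte gene named after its values were seen, had 9.93, 10.45 and 10.42. Their part in the spread of Tek was not tested. The genes whose deviations on the 3 arrays lay nearest to those of Tek, by Euclidean distance among 2999 candidates, were Itga1, an integrin gene, at 0.0064 log2, Bdp1, of RNA polymerase III transcription, at 0.012, and 4932438A13Rik at 0.014. Itga1 had 9.65, 9.15 and 9.38. With 3 arrays such likeness is a description of these preparations.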

How the data were processed

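Total RNA of 3 samples of sieved adult renal corpuscle, per the labels amplified in 1 round with a NuGEN Pico kit and labelled with biotin, was measured on Affymetrix mouse gene arrays. The authors deposited 1 table of log2 signals for 35557 probe sets, and Affymetrix Expression Console is the tool in the submitters' processing notes; its settings and any normalization are not given in the sources used here. Array medians were 7.11, 7.11 and 7.09, and nothing was normalized further. Arrays carry no read depth, and their number limits the precision.

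The platform annotation supplied gene names, with 1 symbol for 21789, several for 1621 and none for 12147. Of the first, 21698 had their gene ID in the current reference and 0 symbols changed. Where a gene had more than 1 probe set, that of the highest mean was kept. Promoter stretches were read from RefSeq (GRCm38.p6).

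log2 signal minus each array's background was fitted with limma 3.58.1 in R 4.3.3 (intercept, eBayes with a trend), one-sided, over 19938 genes, and 11712 passed an adjusted p of 0.05. The fit was tested on simulated data. Its SE followed level more than a gene's own spread. Of 1190 receptor genes, 52 (4.37%) were themselves called. Background was the 95th percentile of their own probe sets, so a small share was fixed in advance. It is not a rate of false calls. The alternatives changed the background level, normalization, variance prior, call rule, probe set choice, low-value filter and replicates.

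Genes named in the text were the 8 genes themselves, and the 4 called genes farthest above background and up to 3 uncalled genes of each list. Also named were the 3 genes nearest to Tek, overlapping genes and list genes over 2-fold apart between arrays. Exceptions are where a choice after seeing values is stated. Of the smooth muscle, tubule and other marker lists mainly counts, medians or the highest gene are given. The genes studied and the lists were chosen with earlier results of these data known.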

Additional observations from a re-analysis of the deposited data

How the results depend on the processing

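No paired analysis was possible because there was no second group to pair with. The count of angiopoietin and Tie genes above background was 5 of 7 and moved with the bar. It was 4 with the 99th percentile of receptors, which 41.6% of all genes passed. With the median of receptors, which 90.4% of all genes passed, it was 7. When a replicate was left out it was 5 to 6, beside 57.1% to 59.4% of all genes. All these counts lie within 1.5 times of 5, but with 7 genes no higher count could leave that range. The pathway count of 45 of 52 ran from 39 with the 99th percentile to 51 with the median, beside the same 41.6% and 90.4% of all genes. It was 45 whichever replicate was left out. None of the 5 called angiopoietin and Tie genes was over 2-fold apart between arrays, a count of 0 that also held with quantile normalization. The other settings could not raise it. Each gene had 1 probe set, so the mean over probe sets left its values the same, and leaving out a replicate can only narrow a range. Distances with the mean over probe sets could not move, since each gene had 1 probe set. Of all 56 recomputed distances of single genes from background, 50 kept their direction and call. Those that turned direction came from moving the background level itself: Angpt1 was 0.46 above the median of receptors, Angpt4 was at -0.58 against the 99th percentile and -0.25 against a fixed linear signal of 150, and Angptl4 was at -0.048 against the 99th percentile. Angpt4 gained a call at 1.60 against the median of receptors and at 0.063 without replicate 2. Over all genes the count above background was 11712, and 18023 against the median of receptors. Against the fixed signal, genes with 1 value on all arrays have no spread, so their calls there carry no error. The setting that counts the probe set listed for Angptl2 was added after the data were seen and gave 6. It took that probe set by a distance of over 1 log2 and not by the test.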

Other observations

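Tie receptors also serve lymphatic vessels, and markers of lymphatic endothelium, which the comparisons above do not use, were near or below background. Of 3 genes with a value 2 were called, near the share of 58.7% over all genes, the receptor gene Flt4 and the hyaluronan receptor gene Lyve1, each 0.14 log2 above background. Lyve1 had 7.03, 7.15 and 7.04 on replicates 1, 2 and 3. Prox1, the factor that defines lymphatic endothelium, was at -1.05 and was not called. The median of the 3 was 0.14, beside 0.37 over all genes and 2.95 for the 20 endothelial markers. Ccl21a was not analysed here.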
